A study of Mus musculus with 9 samples.

Results

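Secretory cells fold new proteins in the endoplasmic reticulum (ER), where chaperones hold the chain, oxidoreductases form its disulfide bonds, and ER-associated degradation (ERAD) returns misfolded chains to the cytosol for the proteasome. The unfolded protein response adjusts this capacity through the membrane sensors Ern1 (IRE1 alpha), Atf6 and Eif2ak3 (PERK), with Xbp1 as the transcription factor downstream of Ern1. Pancreatic beta cells depend on this machinery because proinsulin is made in large amounts and needs correct disulfide bonds. The 40 genes described here are named members of this machinery, taken by their symbols, out of 52408 genes to which the deposited transcripts could be assigned. They comprise 7 sensors and regulators, 14 chaperones and chaperone co-factors, 8 disulfide enzymes and 11 ERAD components, and all 40 were found and passed the filter on low values.

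They were measured by RNA-seq of total RNA from MIN6, a mouse insulinoma line used as a model of beta cells. Of the 9 libraries, 3 came from MIN6 cells that overexpressed the orphan nuclear receptor Nr4a1 and were treated with EGCG (epigallocatechin gallate, a green tea catechin), 3 from MIN6 cells that overexpressed Nr4a1, and 3 from untransfected MIN6 control cells. The sources used here give no vector, transfection method, EGCG dose or EGCG time, and an effect of transfection itself cannot be told apart from that of Nr4a1, since the controls were untransfected. Levels are TPM, a transcript's share of the library corrected for its length, as the authors deposited them, added up over the transcripts of a gene. The depth of the libraries is unknown, because TPM does not keep it. A log2 fold change is the difference between 2 group means of log2(TPM + 1), a scale that understates the change of low genes. They were tested with limma over the 11950 genes that reached 1 TPM in 3 or more libraries, and a gene is said to have risen or fallen where its Benjamini-Hochberg adjusted p was under 0.05. A ± after a log2 fold change is limma's SE, and after a TPM or a percentage it is the SD over 3 libraries. The labels do not say whether the 3 libraries of a group came from separate cultures, so the p-values rest on a spread that may be technical.

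Nr4a1 stood at 46.3, 60.9 and 54.5 TPM in the EGCG-treated overexpressing libraries, at 128.3, 122.5 and 165.2 TPM in the overexpressing libraries, and at 0.63, 0.78 and 0.76 TPM in control. The EGCG group therefore also held less Nr4a1 transcript than the overexpression group, and the compound and that difference cannot be told apart. Of 10 beta cell markers, 9 reached a mean of 1 TPM with EGCG, 8 with overexpression alone and 9 in control, and their summed level was 3995 to 4330 TPM with EGCG, 5771 to 6057 TPM with overexpression and 3727 to 3883 TPM in control. Most of that sum was Iapp and Ins1, which averaged 2994 and 724.4 TPM with EGCG, 3248 and 2030 TPM with overexpression, and 2625 and 784.9 TPM in control. The beta cell factor Mafa averaged 33.3, 38.7 and 62.9 TPM in these groups, the glucose transporter Slc2a2 3.14, 0.647 and 1.07 TPM, and Ucn3 0.113, 0.297 and 0.407 TPM. The other beta cell markers were highest with overexpression. Pdx1 averaged 33.7, 70.6 and 42.4 TPM, Nkx6-1 2.46, 6.38 and 4.73 TPM, and Nkx2-2 3.08, 6.75 and 4.96 TPM. Slc30a8 averaged 41.0, 51.4 and 35.6 TPM, and G6pc2 321.1, 457.6 and 248.6 TPM. Of 8 markers of other islet cells, 2 (Gcg and Irx2) reached 1 TPM in each group. Their sum ran from 294.1 to 326.8 TPM with EGCG, from 729.8 to 811.1 TPM with overexpression and from 318.9 to 336.2 TPM in control, nearly all of it Gcg, while Sst was listed at 0 in all 6 transfected libraries. Acinar and ductal markers summed to 17.2 to 19.2 TPM with EGCG, 14.2 to 16.5 TPM with overexpression and 17.0 to 21.6 TPM in control, and stromal and immune markers to 0.73 to 0.86, 0.56 to 0.69 and 1.18 to 1.66 TPM. The beta and other islet sums were highest with overexpression, as many of the ER genes described next were, and the part of these differences in the results was not tested. The libraries also differed between groups in other RNA. Chemoreceptor genes, which this cell type is not known to use, summed to 7.86 to 11.8 TPM with EGCG, 4.23 to 4.72 TPM with overexpression and 50.06 to 107.78 TPM in control. Transcripts that could not be assigned to a gene held 19.5% to 20.1%, 18.0% to 18.7% and 19.8% to 20.6% of the TPM. The part of these differences was not tested either. In bulk RNA, fewer cells of a type and less RNA per cell cannot be told apart.

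The genes differed widely in level. In control, Ero1lb, the beta cell oxidase that passes electrons from protein disulfide isomerase to oxygen, was the most abundant at 297.1 ± 19.0 TPM (SD, n = 3), followed by the lectin chaperone Calr at 195.0 ± 11.9 TPM, with no overlap between the libraries of both genes. Hsp90b1, Ppib, Canx and Hspa5 came next, between 109.7 and 115.5 TPM, and each overlapped its neighbour in that order. The ubiquitin ligase Syvn1 was the least abundant at 2.03 ± 0.171 TPM. With overexpression, Calr stood first at 364.1 ± 21.0 TPM and Hspa5 followed at 305.3 ± 24.1 TPM, which overlapped Ero1lb at 265.1 ± 17.6 TPM. The transcripts of the sensors were scarce beside those of the abundant genes named above. Ern1, Atf6 and Eif2ak3 averaged 8.82, 11.6 and 5.28 TPM with EGCG, 6.68, 13.2 and 4.85 TPM with overexpression, and 7.65, 11.6 and 5.04 TPM in control.

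**Figure D1:**
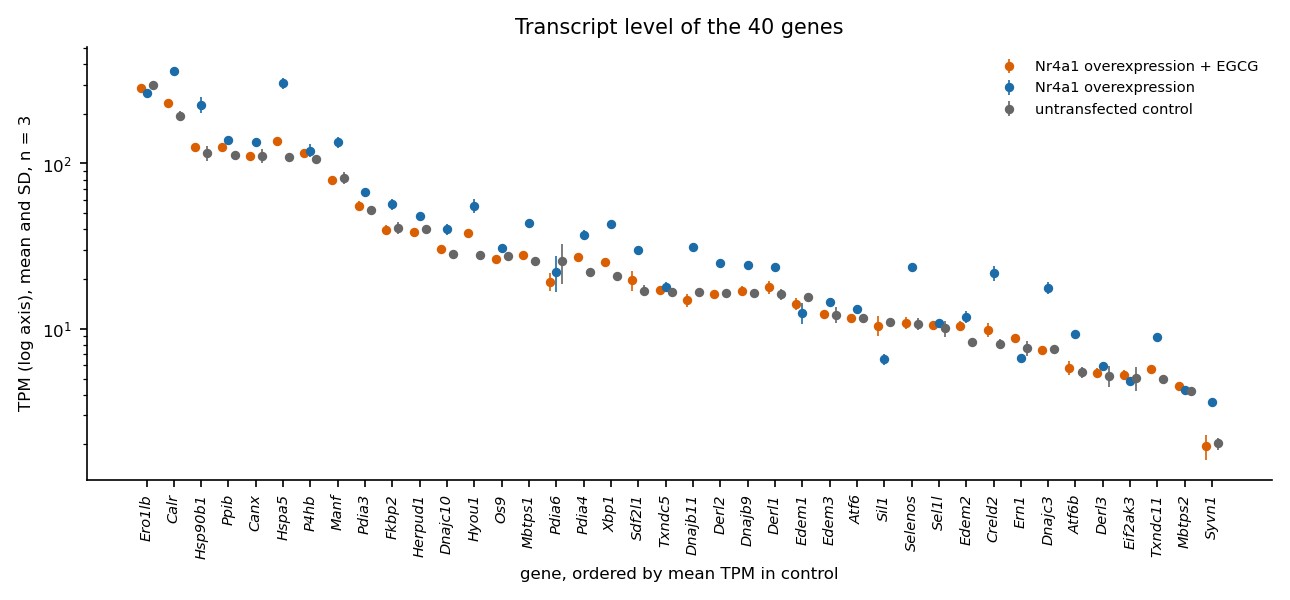
Mean TPM of each of the 40 genes in the 3 groups on a log axis, with SD over 3 libraries, ordered by the mean in control. Most blue points, the overexpression group, lie above the orange points of the EGCG group and the grey points of control; Sil1, Edem1, Ern1 and Ero1lb are among those where the blue point is the lowest.

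Some of these genes carry the ER stress response element (ERSE) in their promoters, to which ATF6 and the spliced form of XBP1 bind with NF-Y in known target promoters. The letters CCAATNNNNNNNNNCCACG were searched on both strands in RefSeq promoter windows of 250 bases before to 50 bases after the annotated start (build GRCm38.p6). Of the 40 genes 35 had a window, and 10 of these 35 (28.6%) held the element. The element is known from promoters of this kind of gene, so that share is a description and was not tested. Among all 27025 genes with a window 37 held it, these 10 included. Counted by window, it stood in 39 of 32851 (0.119%). The stretches below come from 5 chaperone genes that rose with overexpression and from 2 disulfide enzyme genes that were not called. They are shown because the same letters stand in both sets. Capitals mark CCAAT and CCACG, or ATTGG and CGTGG where the element lies on the other strand.
Hspa5: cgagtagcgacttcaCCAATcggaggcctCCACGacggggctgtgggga
Creld2: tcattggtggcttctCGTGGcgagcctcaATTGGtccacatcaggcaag
Dnajc3: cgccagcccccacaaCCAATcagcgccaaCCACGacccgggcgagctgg
Calr: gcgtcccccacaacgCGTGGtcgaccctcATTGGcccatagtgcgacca
Hsp90b1: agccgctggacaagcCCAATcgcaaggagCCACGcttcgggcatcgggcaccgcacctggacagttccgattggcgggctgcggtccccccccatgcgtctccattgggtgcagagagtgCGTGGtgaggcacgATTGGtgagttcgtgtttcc
Ero1lb: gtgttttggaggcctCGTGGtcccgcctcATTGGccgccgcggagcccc
Pdia6: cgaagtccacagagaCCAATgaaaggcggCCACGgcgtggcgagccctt

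The stretches lie upstream of the start, at chr2:34772010-34772058 on the plus strand for Hspa5, chr15:88819505-88819553 (plus) for Creld2, chr14:118937812-118937860 (plus) for Dnajc3, chr8:84847060-84847108 (minus) for Calr, chr10:86705518-86705671 (minus) for Hsp90b1, chr13:12565667-12565715 (plus) for Ero1lb and chr12:17266476-17266524 (plus) for Pdia6. Hsp90b1 held 2 copies. Canx, Syvn1 and Derl3 also held the element. The related element ERSE-II stood in the windows of Dnajb11 and Herpud1 and in 12 of all windows (0.0365%). The XBP1 motif called UPRE (TGACGTGG) stood in those of Txndc11 and Txndc5 and in 222 of all windows (0.676%). The NBRE (AAAGGTCA), the site that Nr4a1 binds as a monomer, was in no window of the 35 genes and in 495 of all windows (1.51%). A match is a description of the letters and not of binding, and a missing match says only that the letters are not in this window.

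Overexpression against untransfected control sets cells that overexpress Nr4a1 beside untransfected ones, so Nr4a1 and transfection are not told apart. Of the 40 genes, 29 rose and 2 fell, Sil1 and Edem1, and 9 were not called. Among all 11950 tested genes 59.5% were called, 38.2% higher and 21.3% lower. The median log2 fold change was 0.48 for the 40 genes and 0.10 for all tested genes. The libraries of both groups did not overlap for 30 genes on the higher side and 2 on the lower side, where 65% of all tested genes did not overlap (41.3% higher and 23.6% lower). By role, 13 of 14 chaperones and co-factors rose and 1 fell (median 0.82), 4 of 8 disulfide enzymes rose (median 0.25), 8 of 11 ERAD components rose and 1 fell (median 0.26), and 4 of 7 sensors and regulators rose (median 0.17). The summed level of the chaperones was 1665, 1476 and 1501 TPM in the overexpressing libraries, against 886.8, 890.1 and 837.4 TPM in control. The disulfide enzymes summed to 627.6, 557.7 and 548.1 TPM with overexpression and to 580.2, 556.1 and 525.9 TPM in control, so their sums overlapped. Overexpression replicate 1 held the highest of its group's values for 33 of the 40 genes; without it 25 genes rose and 3 fell.

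Scaling bears on these counts, because the abundant RNAs of a library set the TPM of all others. Nuclear protein-coding genes held 20.3% to 20.7% of the TPM with EGCG, 22.6% to 23.1% with overexpression and 21.2% to 21.7% in control. Of the 40 genes, 24 rose and 4 fell under median-ratio scaling, 22 rose and 3 fell under quantile normalization, and 26 rose and 4 fell once libraries were rescaled on nuclear protein-coding genes. Over all tested genes the deposited scale gave 4561 higher and 2545 lower, median-ratio scaling 3541 higher and 3547 lower, quantile normalization 3559 higher and 3389 lower, and the rescaling 3812 higher and 3219 lower. With no filter on low values, 4597 were higher and 7798 lower, so the balance over all genes turned (median -0.05), while 28 of the 40 genes rose and 2 fell. The call of 23 of the 31 genes held in all 15 alternatives tried, and those that lost it in some were Atf6, Canx, Edem1, Edem3, Herpud1, Os9, Pdia3 and Ppib.

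**Figure D2:**
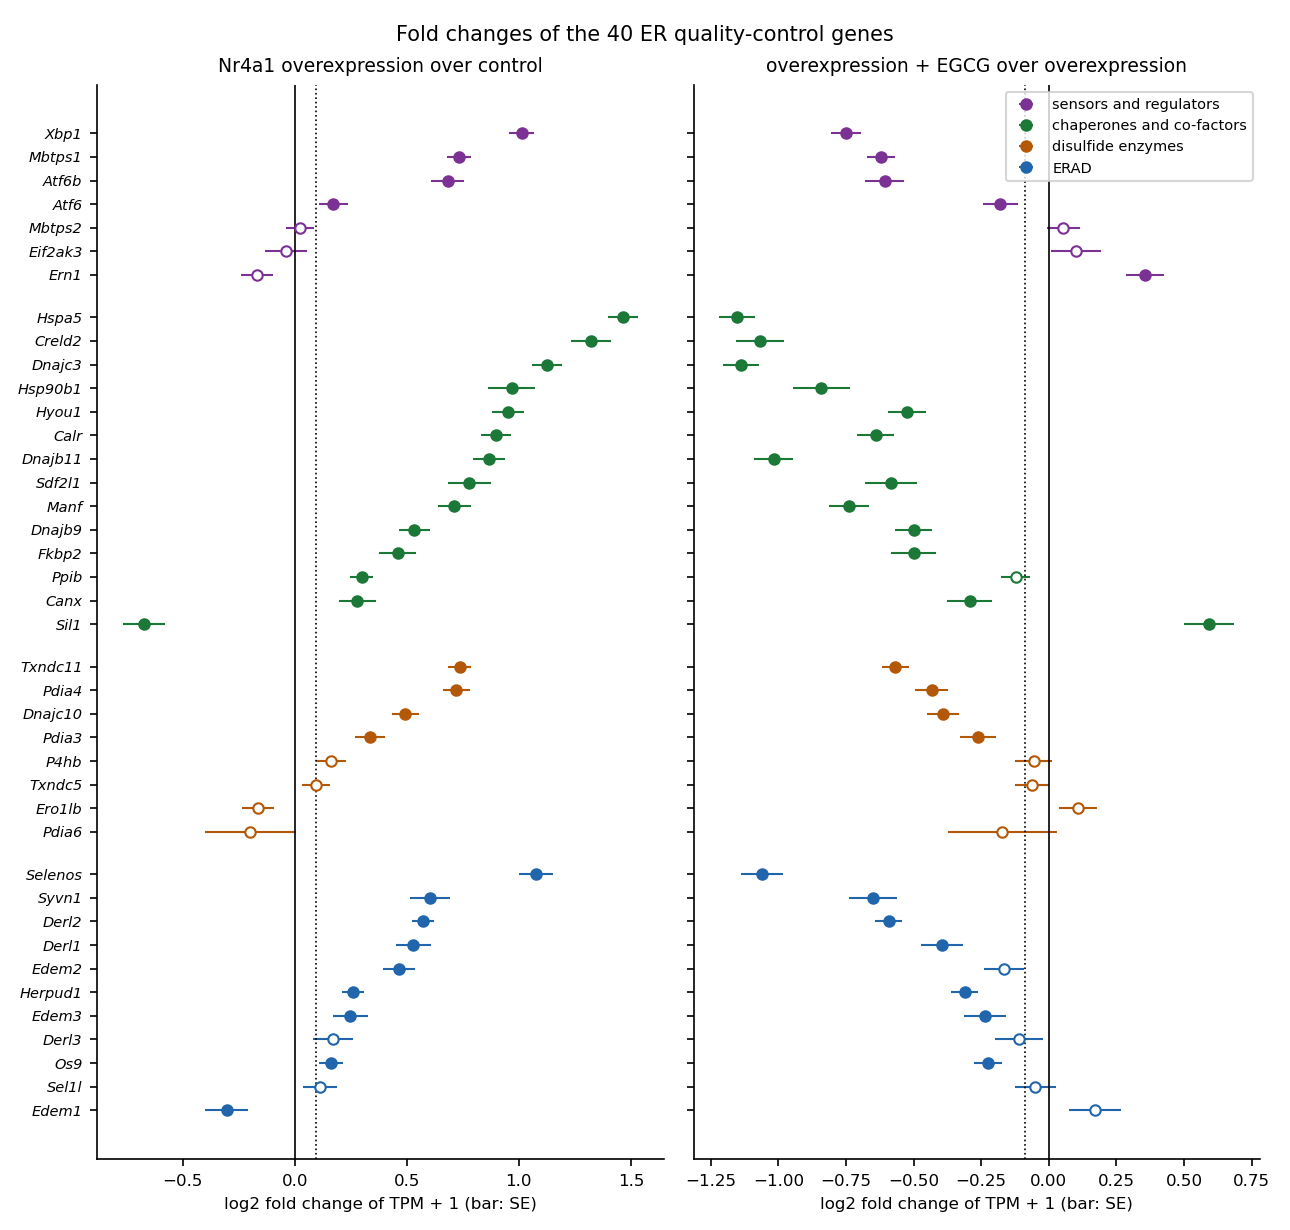
Log2 fold changes with limma's SE for the 40 genes by role, overexpression over control on the left and overexpression with EGCG over overexpression on the right; filled points were called and open points were not. The dotted lines mark the median of all tested genes, 0.10 on the left and -0.09 on the right, and most green points, the chaperones, lie far to the right of it on the left and far to the left of it on the right.

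The largest change among the 40 genes was that of Hspa5 (BiP), the ER HSP70 that binds unfolded chains and keeps the sensors inactive. It was at 331, 302 and 283 TPM in the overexpressing libraries, against 111.4, 110.1 and 107.6 TPM in control. No overexpressing library came near the control level, and the means differed 2.78-fold (log2 fold change 1.47 ± 0.0663; limma adjusted p = 6.69e-07). Creld2, an ER protein induced by stress, was at 24.5, 20.2 and 20.9 TPM with overexpression and at 7.54, 8.26 and 8.53 TPM in control (log2 fold change 1.32 ± 0.0887; limma adjusted p = 4.29e-06). Dnajc3 (p58IPK), a J-domain co-chaperone of Hspa5 that also restrains PERK, was at 19.2, 17.4 and 16.4 TPM, against 7.76, 7.75 and 7.16 TPM in control (1.12 ± 0.0666; limma adjusted p = 2.52e-06). In both genes the groups were far apart, and the ratios of the means were 2.69 and 2.34. Dnajb11 (ERdj3), the J-domain partner that hands substrates to Hspa5, was at 33.0, 30.2 and 30.4 TPM with overexpression and at 16.8, 17.4 and 15.7 TPM in control (0.87 ± 0.0717; limma adjusted p = 1.33e-05).

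The other general folding factors rose as well, with no overlap between the groups in any of them. Hsp90b1 (GRP94), the ER HSP90, was at 256, 203 and 222 TPM with overexpression and at 125.6, 119.7 and 101.3 TPM in control (log2 fold change 0.97). Calr was at 388, 349 and 355 TPM with overexpression, against 200, 203.5 and 181.4 TPM in control (0.90), while its membrane-bound relative Canx rose by only 0.28 ± 0.0828. The rise of Canx was 0.24 without overexpression replicate 1, 0.16 under median-ratio scaling and 0.06 under quantile normalization, and was called in none of these 3. Sdf2l1, which works in a complex with Dnajb11, rose by 0.78, Manf, an ER factor released under stress, by 0.71, Dnajb9 (ERdj4) by 0.53, and the prolyl isomerases Fkbp2 and Ppib by 0.46 and 0.30, the last being 0.08, and not called, under quantile normalization. Manf and Hsp90b1 share exon bases with genes on the other strand, Dcaf1 and 1810014B01Rik, which averaged 10.1 and 7.55 TPM, and the strand setting of the authors' counting is not given, so a small part of their values is uncertain.

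Hspa5 releases its substrate after a nucleotide exchange factor has swapped its ADP for ATP, and the ER has 2 such factors, which went apart here. Hyou1 (GRP170), itself a chaperone, was at 61.6, 51.6 and 53.0 TPM with overexpression and at 27.0, 29.6 and 27.7 TPM in control, a rise of 0.95 ± 0.0715 (limma adjusted p = 7.87e-06). Sil1, the smaller factor, was at 7.15, 6.21 and 6.34 TPM with overexpression, against 10.5, 11.1 and 11.6 TPM in control, and fell by 0.67 ± 0.0938 on the log2 scale (limma adjusted p = 0.000271). For neither gene did the groups overlap. The main transcript Sil1-201 held 92.1% ± 3.78 of the gene's TPM with overexpression and 71.1% ± 2.34 in control (SD, n = 3), and a second protein-coding transcript, Sil1-205, was at 0.32, 0.00 and 0.36 TPM with overexpression and at 2.63, 3.38 and 3.10 TPM in control. Much of the fall in the gene's TPM thus lay in Sil1-205, and the split of reads between the transcripts was not tested.

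Among the sensors and regulators, Xbp1, Atf6b, Atf6 and the protease Mbtps1 rose, while the sensor kinases Ern1 and Eif2ak3 and the protease Mbtps2 were not called. Xbp1 was at 45.8, 41.3 and 42.4 TPM with overexpression and at 20.2, 20.8 and 21.6 TPM in control (log2 fold change 1.01 ± 0.0559; limma adjusted p = 1.78e-06). Its transcript Xbp1-201 held 83.5% ± 1.51 of that level with overexpression and 84.8% ± 0.688 in control, and the IRE1-spliced form was not measured apart. Atf6b, the close relative of Atf6, was at 9.66, 9.20 and 9.17 TPM against 5.12, 5.35 and 5.89 TPM in control (0.68 ± 0.0721; limma adjusted p = 5.33e-05). Mbtps1, the site-1 protease that makes the first cut in ATF6 proteins in the Golgi, was at 43.6, 44.0 and 42.5 TPM against 26.2, 24.0 and 26.9 TPM (0.73 ± 0.0529; limma adjusted p = 6.31e-06). None of these groups overlapped.

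The remaining sensors changed little or were not called. Atf6 was at 14.0, 12.5 and 13.2 TPM with overexpression and at 11.5, 12.3 and 11.01 TPM in control, and its rise of 0.17 ± 0.0659 was only just past the threshold (limma adjusted p = 0.0473). The call of Atf6 was lost without overexpression replicate 1 (0.13) or 3 (0.17) and without control replicate 1 (0.17) or 3 (0.14), and under all 3 scalings the value was smaller and not called (0.06 median-ratio, 0.04 quantile, 0.09 nuclear protein-coding). Mbtps2, the site-2 protease that makes the second cut, was at 4.52, 4.11 and 4.22 TPM with overexpression and at 3.94, 4.48 and 4.18 TPM in control. Eif2ak3 was at 5.03, 4.75 and 4.76 TPM against 4.39, 5.94 and 4.79 TPM in control, and Ern1 at 6.41, 6.75 and 6.87 TPM against 7.71, 8.41 and 6.83 TPM. The groups overlapped in these 3 genes, and their log2 fold changes of 0.02, -0.04 and -0.17 had SEs of 0.0617, 0.0918 and 0.0694. The sign of the Mbtps2 value turned under all 3 scalings, while Ern1 was called lower under all 3, by between 0.24 and 0.27 on the log2 scale, and without control replicate 3.

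**Figure D3:**
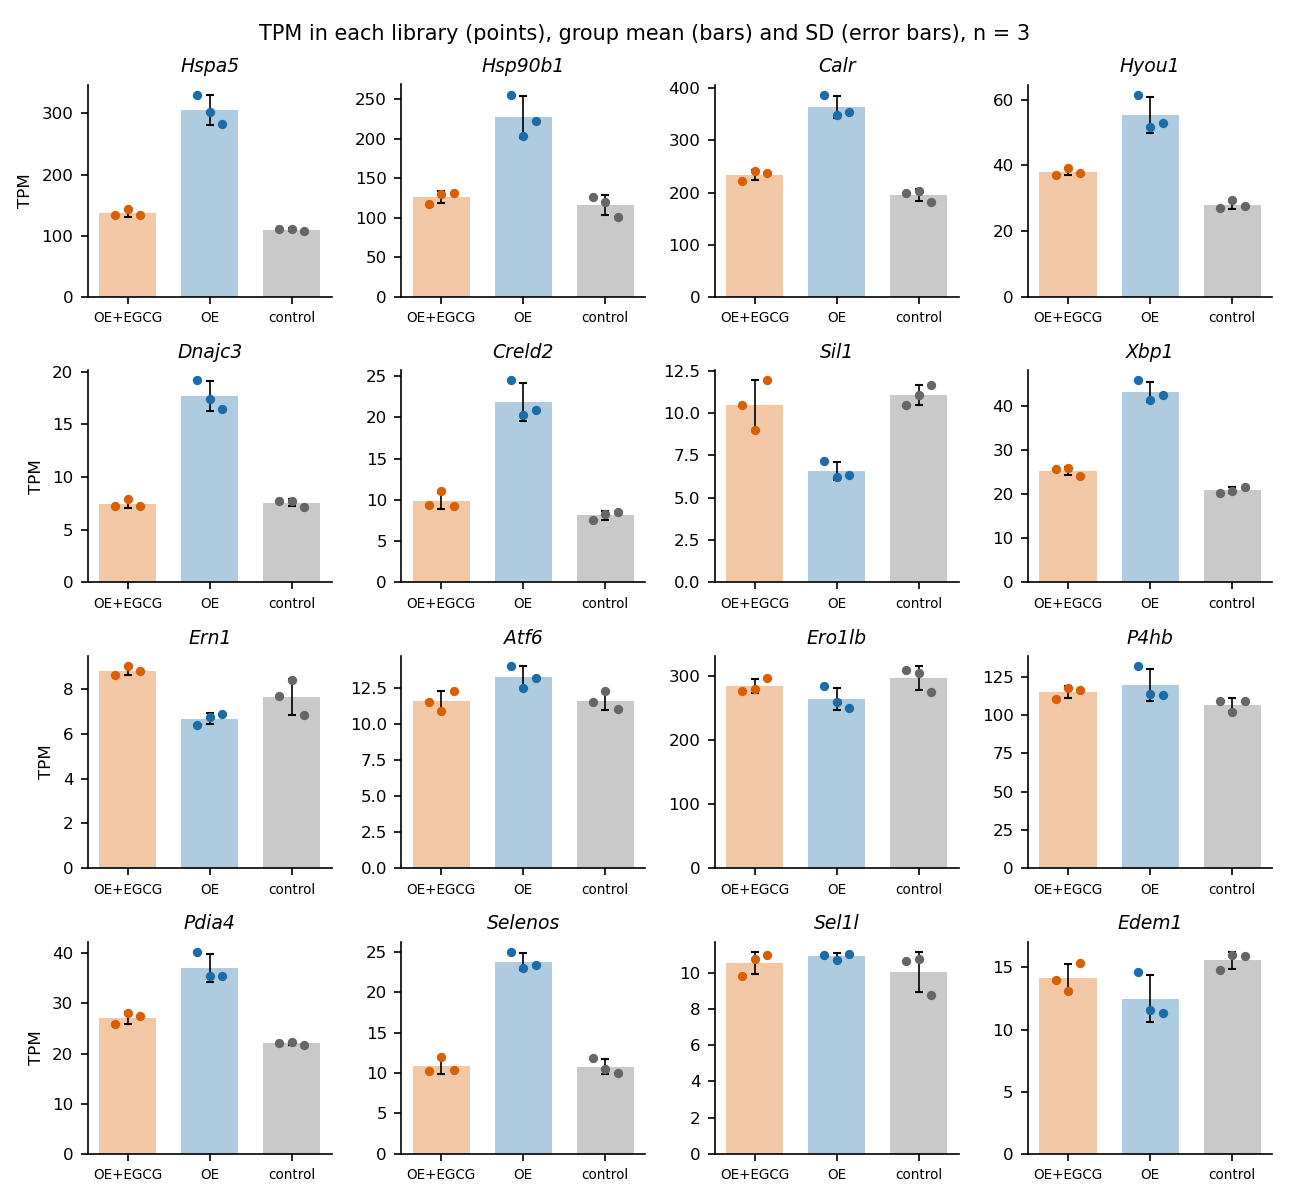
TPM in each of the 9 libraries (points) for 16 of the genes, with the group mean as a bar and the SD as an error bar; OE stands for Nr4a1 overexpression, and each axis starts at 0. The blue points of the overexpressing libraries stand above both other groups for Hspa5, Creld2, Dnajc3, Xbp1 and Selenos, below both for Sil1, and overlap them for Ero1lb and Sel1l.

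The disulfide enzymes fell into a group that rose and a group that was not called. Txndc11, an ER thioredoxin-domain protein, was at 9.14, 8.6 and 8.96 TPM with overexpression and at 4.84, 5.04 and 4.95 TPM in control (log2 fold change 0.74 ± 0.0503; limma adjusted p = 4.73e-06). Pdia4 (ERp72) was at 40.3, 35.5 and 35.4 TPM against 22.1, 22.3 and 21.7 TPM in control (0.72 ± 0.0611; limma adjusted p = 1.52e-05). Dnajc10 (ERdj5), a reductase that opens disulfides for degradation, was at 43.6, 39.04 and 37.9 TPM against 28.6, 28.3 and 27.7 TPM (0.49 ± 0.0586; limma adjusted p = 0.000105), and Pdia3 (ERp57), the partner of Calr and Canx, was at 70.5, 63.1 and 66.9 TPM against 55.1, 53.2 and 49.7 TPM (0.34 ± 0.067; limma adjusted p = 0.00212). In these 4 genes the groups did not overlap, and the rise of Pdia3 was 0.14, and not called, under quantile normalization. The 4 others were the founding isomerase P4hb (0.16 ± 0.0688), Txndc5 (0.09 ± 0.0616), Ero1lb (-0.16 ± 0.071) and Pdia6 (-0.20 ± 0.202).

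Ero1lb, at 284.8, 259.5 and 250.9 TPM with overexpression and at 310.6, 305.4 and 275.4 TPM in control, was the most abundant disulfide enzyme in every group. It was called lower with median-ratio scaling (-0.28), after rescaling on nuclear protein-coding genes (-0.25), without overexpression replicate 1 (-0.22) and without control replicate 3 (-0.22). The values of P4hb and Txndc5 turned sign with quantile normalization. Pdia6 had the widest spread of all, at 28.0, 20.6 and 17.7 TPM with overexpression and at 33.3, 23.6 and 20.0 TPM in control.

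In ERAD, the largest rise was that of Selenos (VIMP), a selenoprotein that links the Derlins to the p97 segregase, at 25.0, 23.0 and 23.3 TPM with overexpression and at 11.8, 10.5 and 10.02 TPM in control (log2 fold change 1.08 ± 0.0773; limma adjusted p = 6.15e-06). Syvn1 (HRD1), the ubiquitin ligase at the centre of the pathway, was at 3.63, 3.45 and 3.71 TPM against 2.17, 1.84 and 2.08 TPM (0.60 ± 0.0886; limma adjusted p = 0.000375). Derl2 was at 25.5, 25.5 and 24.1 TPM against 15.9, 17.2 and 16.4 TPM (0.57 ± 0.0494; limma adjusted p = 1.67e-05), and Derl1 at 25.3, 23.1 and 23.0 TPM against 15.3, 15.8 and 17.5 TPM (0.53 ± 0.0778; limma adjusted p = 0.000374). The groups did not overlap in these 4 genes. Syvn1 and Derl2 share exon bases on the other strand with Mrpl49 and Mis12, which averaged 14.1 and 12.1 TPM, so the low level of Syvn1 in particular is uncertain.

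The partner of Syvn1 was not called. Sel1l, the adaptor that stabilises Syvn1, was at 11.01, 10.7 and 11.04 TPM with overexpression and at 10.7, 10.7 and 8.80 TPM in control, with overlap between the groups (0.11 ± 0.0765). The 3 mannose-trimming Edem proteins, which mark glycoproteins for disposal, also split: Edem2 rose by 0.46 ± 0.0727 and Edem3 by 0.25 ± 0.0786, while Edem1 fell by 0.30 ± 0.0965 on the log2 scale. Edem1 was at 14.6, 11.5 and 11.3 TPM with overexpression, against 14.8, 16.0 and 16.0 TPM in control. Its call was lost without overexpression replicate 2 (-0.25) or 3 (-0.24) and without control replicate 2 (-0.29) or 3 (-0.29), and that of Edem3 without overexpression replicate 1 (0.21) and under all 3 scalings (0.11 to 0.17). Herpud1, a scaffold of the same complex, rose by 0.26 ± 0.05 (0.14 and 0.07, and not called, with median-ratio scaling and quantile normalization), and the lectin Os9 rose by 0.16 ± 0.0527. The call of Os9 was lost without overexpression replicate 1 (0.13) or control replicate 3 (0.14) and with the replicate number as a block. It was also lost with median-ratio scaling (0.05) and rescaling on nuclear protein-coding genes (0.08), and the value turned to -0.00 with quantile normalization. Derl3 was not called (0.17 ± 0.0899), but was called higher without control replicate 3 (0.27).

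EGCG with overexpression against overexpression alone sets treated cells beside untreated ones, which also held more Nr4a1 transcript. Of the 40 genes, 27 fell and 2 rose, Ern1 and Sil1, and 11 were not called. Among all tested genes 53% were called, 18.8% higher and 34.1% lower, and the medians were -0.39 for the 40 genes and -0.09 for all tested genes. The groups did not overlap for 28 genes on the lower side and 3 on the higher side, where 64.6% of all tested genes did not overlap (41.4% lower and 23.2% higher). By role, 12 of 14 chaperones fell and 1 rose (median -0.61), 7 of 11 ERAD components fell (median -0.24), 4 of 8 disulfide enzymes fell (median -0.22), and 4 of 7 sensors and regulators fell and 1 rose (median -0.18). The chaperones summed to 928.7, 999.5 and 982.0 TPM with EGCG, against 1665, 1476 and 1501 TPM with overexpression alone.

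This comparison shares the overexpression libraries with the previous one, so a gene that is high in those libraries is pushed up in the first and down in the second, and the signs of both are not independent. Of the 40 genes, 25 fell and 4 rose under median-ratio scaling, 21 fell and 3 rose under quantile normalization, and 22 fell and 5 rose on the nuclear protein-coding scale. That last rescaling moved the median of all tested genes by 0.13, to 0.04. Over all tested genes the deposited scale gave 2250 higher and 4080 lower, median-ratio scaling 3054 higher and 3082 lower, quantile normalization 2816 higher and 3101 lower, and the rescaling 3462 higher and 2607 lower. The call of 23 of the 29 genes held in all 15 alternatives, and those that lost it in some were Atf6, Canx, Edem3, Herpud1, Os9 and Pdia3.

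Hspa5 was at 133, 144 and 133 TPM with EGCG, against 331, 302 and 283 TPM with overexpression alone. No EGCG library reached the lowest library of overexpression, and the mean was 0.448 times that of overexpression (log2 fold change -1.15 ± 0.0663; limma adjusted p = 2.6e-06). Dnajc3 was at 7.24, 7.89 and 7.27 TPM with EGCG (-1.14 ± 0.0666; limma adjusted p = 2.81e-06), Creld2 at 9.43, 11.01 and 9.26 TPM (-1.07 ± 0.0887; limma adjusted p = 1.98e-05), Selenos at 10.2, 12 and 10.4 TPM (-1.06 ± 0.0773; limma adjusted p = 1.02e-05) and Dnajb11 at 13.7, 16.4 and 14.6 TPM (-1.02 ± 0.0717; limma adjusted p = 8.6e-06). In each of these genes every EGCG library lay below every library of overexpression alone.

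Hsp90b1 fell by 0.84, Manf by 0.74, Calr by 0.64, Sdf2l1 by 0.58 and Hyou1 by 0.52 on the log2 scale. Dnajb9 and Fkbp2 each fell by 0.50, and Canx by 0.29, a call that was lost without EGCG replicate 1 (-0.25) or overexpression replicate 1 (-0.25), under quantile normalization (-0.09) and on the nuclear protein-coding scale (-0.14). Ppib was not called (-0.12 ± 0.0525), although every EGCG library was below every library of overexpression alone, and its sign turned with quantile normalization and with rescaling on nuclear protein-coding genes. Sil1 was the chaperone co-factor that rose, at 10.5, 9 and 11.9 TPM with EGCG against 7.15, 6.21 and 6.34 TPM with overexpression alone (0.59 ± 0.0938; limma adjusted p = 0.000749).

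Of the sensors and regulators, Xbp1 was at 25.6, 26.0 and 24.1 TPM with EGCG and fell by 0.75 ± 0.0559 on the log2 scale (limma adjusted p = 1.17e-05). Mbtps1 was at 27.6, 27.4 and 28.6 TPM and fell by 0.62, and Atf6b was at 5.23, 5.88 and 6.32 TPM and fell by 0.61. Atf6, at 11.5, 10.9 and 12.3 TPM, fell by 0.18 ± 0.0659 (limma adjusted p = 0.0452), a call that was lost without EGCG replicate 1 (-0.18) or 2 (-0.14) and without overexpression replicate 1 (-0.14) or 3 (-0.18), and under all 3 scalings, where it was between -0.08 and -0.04. Ern1 rose, at 8.63, 9.03 and 8.81 TPM with EGCG against 6.41, 6.75 and 6.87 TPM with overexpression alone (0.36 ± 0.0694; limma adjusted p = 0.00236), and held its call in all 15 alternatives. Mbtps2, at 4.58, 4.25 and 4.62 TPM with EGCG, and Eif2ak3, at 5.05, 5.08 and 5.71 TPM, were not called (0.05 ± 0.0617 and 0.10 ± 0.0918). Mbtps2 was called higher on the nuclear protein-coding scale (0.18). At the transcript level Ern1 was higher with EGCG and total Xbp1 lower, and the IRE1-spliced form of Xbp1 was not measured apart.

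Among the disulfide enzymes Txndc11 fell by 0.57, Pdia4 by 0.43, Dnajc10 by 0.39 and Pdia3 by 0.26 on the log2 scale (-0.05 under quantile normalization and -0.11 on the nuclear protein-coding scale, and then not called), while P4hb, Txndc5, Ero1lb and Pdia6 were not called. Ero1lb stood at 277.7, 281.1 and 297.7 TPM with EGCG, which overlapped the overexpressing libraries, and was called higher with median-ratio scaling (0.21) and after rescaling on nuclear protein-coding genes (0.26). The values of P4hb (-0.06) and Txndc5 (-0.06) turned sign under all 3 scalings. In ERAD, Syvn1 fell by 0.65 and stood at 1.59, 1.99 and 2.25 TPM with EGCG, Derl2 fell by 0.59, Derl1 by 0.39, Herpud1 by 0.31, Edem3 by 0.24 and Os9 by 0.22. The call of Edem3 was lost without EGCG replicate 1 (-0.20) or 2 (-0.24) and without overexpression replicate 1 (-0.20) or 2 (-0.24), and under all 3 scalings (-0.14 to -0.09). Quantile normalization also ended the calls of Herpud1 (-0.11) and Os9 (-0.05), and the nuclear protein-coding scale that of Os9 (-0.08). Sel1l (-0.05), Derl3 (-0.11), Edem2 (-0.17) and Edem1 (0.17) were not called. Edem1 was called higher without overexpression replicate 1 (0.28) and under all 3 scalings (0.27 to 0.31), and Edem2 lower without EGCG replicate 2 (-0.21), and the sign of Sel1l turned under all 3 scalings.

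EGCG with overexpression against control shows how far the treated cells stood from untransfected ones. Of the 40 genes, 8 were higher, 0 were lower and 32 were not called, where 18.2% of all tested genes were called, 11.1% higher and 7.1% lower. At an unadjusted limma p under 0.05, 10 genes were higher and 0 were lower, with no count over all tested genes taken at that threshold. Protein-coding transcripts alone gave 9 higher and 1 (Herpud1) lower, where 1403 of all genes tested there were higher and 1013 lower. The median log2 fold change was 0.06 for the 40 genes and 0.02 for all tested genes, and single values ran from -0.37 to 0.43. The groups did not overlap for 13 genes on the higher side and 1 on the lower side, where 34.8% of all tested genes did not overlap (21% higher and 13.8% lower). Over all tested genes the deposited scale gave 1323 higher and 849 lower, median-ratio scaling 1200 higher and 1154 lower, quantile normalization 1212 higher and 1204 lower, and rescaling on nuclear protein-coding genes 2315 higher and 664 lower. With no filter on low values the balance turned, with 1212 higher and 3563 lower.

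The 8 genes were 4 chaperones, 2 disulfide enzymes, Xbp1 and Edem2. Hyou1 was the highest by fold, at 37.2, 39.3 and 37.8 TPM with EGCG against 27.0, 29.6 and 27.7 TPM in control (log2 fold change 0.43 ± 0.0715; limma adjusted p = 0.00742). Hspa5 was higher by 0.31 ± 0.0663 (limma adjusted p = 0.016), at 133, 144 and 133 TPM with EGCG against 111.4, 110.1 and 107.6 TPM in control. Edem2 was higher by 0.30, Pdia4 by 0.29, Xbp1 by 0.26, Calr by 0.26, Ppib by 0.18 and Txndc11 by 0.17, and the groups did not overlap in any of the 8. Dnajc3 and Selenos, which were among the largest rises with overexpression, stood at 0.988 and 1.01 times the control mean with EGCG.

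Of these 8 calls, all but that of Hyou1 depended on single libraries. The count was 3 without EGCG replicate 1, 1 (Hyou1) without EGCG replicate 2, 5 without EGCG replicate 3, 3 without control replicate 1, and 3 without control replicate 2. Without control replicate 3 the count was higher than any of these. It was 4 when only the 6 libraries of both groups were fitted. Over all tested genes that fit gave 543 higher and 352 lower, against 1323 and 849 in the main fit. The number called over all genes also moved when a library was left out, as the closing section gives. Hyou1 was the gene called in all 15 alternatives.

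The counts that follow stand beside the 38.2% of all tested genes that rose with overexpression and the 21.3% that fell. Of the 10 genes with the element printed above, 7 rose with overexpression and 3 (Derl3, Ero1lb and Pdia6) were not called, with a median log2 fold change of 0.75 over control. Of the 25 genes with a promoter window and no such element, 18 rose, 1 fell and 6 were not called, with a median of 0.46. With EGCG against overexpression alone, 7 of the 10 fell (median -0.64), and 16 of the 25 fell and 1 rose (median -0.31), where 34.1% of all tested genes fell and 18.8% rose. The element was also found in the windows of 27 genes outside the list, of which 24 are in the table and 6 passed the filter. Of these 6, 3 (Alg12, Gm6566 and Xlr3c) rose with overexpression, 1 (Xlr3a) fell and 2 (Hnrnpa3 and Pan2) were not called, with a median of 0.13. Gm6566 was near the filter limit, with means of 1.04 TPM with overexpression and 0.69 TPM in control. Xlr3c and Xlr3a, which are alike in name, went opposite ways (0.47 and -0.52). Alg12, one of the 3, shares its promoter window with Creld2, and rose by 0.26 where Creld2 rose by 1.32.

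**Figure D4:**
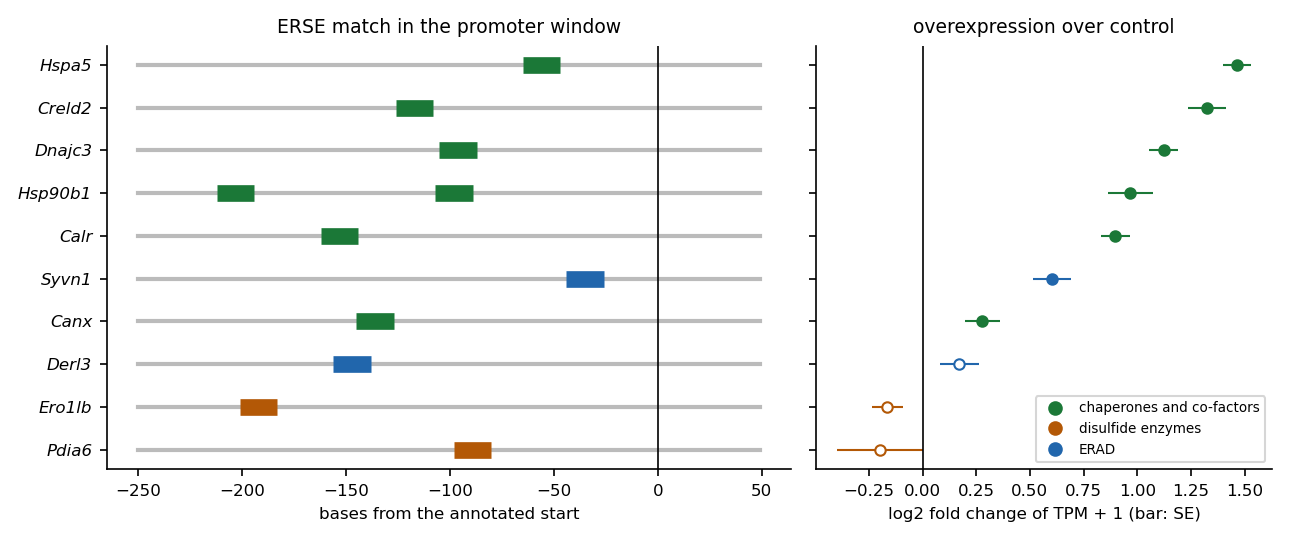
Position of the element in the promoter windows of the 10 genes that hold it (left, in bases from the annotated start) and their log2 fold change with SE, overexpression over control (right); filled points were called. The element spans bases -212 to -26 relative to the start, and the 3 open points at the bottom are Derl3, Ero1lb and Pdia6.

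The fold changes of several genes depend on which transcripts were summed. Transcripts not annotated as protein coding held 70.1% ± 11.2 of the TPM of Pdia6 with overexpression and 72.5% ± 14.7 in control (SD, n = 3), 37.6% ± 2.19 and 48.3% ± 3.63 of that of Calr, 28.7% ± 1.18 and 42.2% ± 6.32 of that of Canx, and 14.4% ± 2.08 and 30.4% ± 4.15 of that of Dnajc10. With protein-coding transcripts alone, an alternative chosen after the data were seen, the rise of Calr with overexpression was 1.17 that of Canx 0.58 and that of Dnajc10 0.78 (0.49 over all transcripts). Dnajc10 was then also called higher with EGCG against control (0.37), as was Canx (0.24). Edem1 (-0.08) and Herpud1 (0.16) lost their calls, Sel1l was called higher (0.20), and Pdia6 stood at 0.02. A Herpud1 transcript annotated as a target of nonsense-mediated decay was at 5.99, 1.48 and 5.97 TPM with EGCG and at 1.38, 3.61 and 2.08 TPM with overexpression, and was listed at 0 in the 3 control libraries. Os9-201 held 78.9% ± 1.13 of the TPM of Os9 with overexpression and 60.3% ± 4.47 in control. The estimation shares reads between overlapping transcripts, so these splits are described and were not tested.

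**Figure D5:**
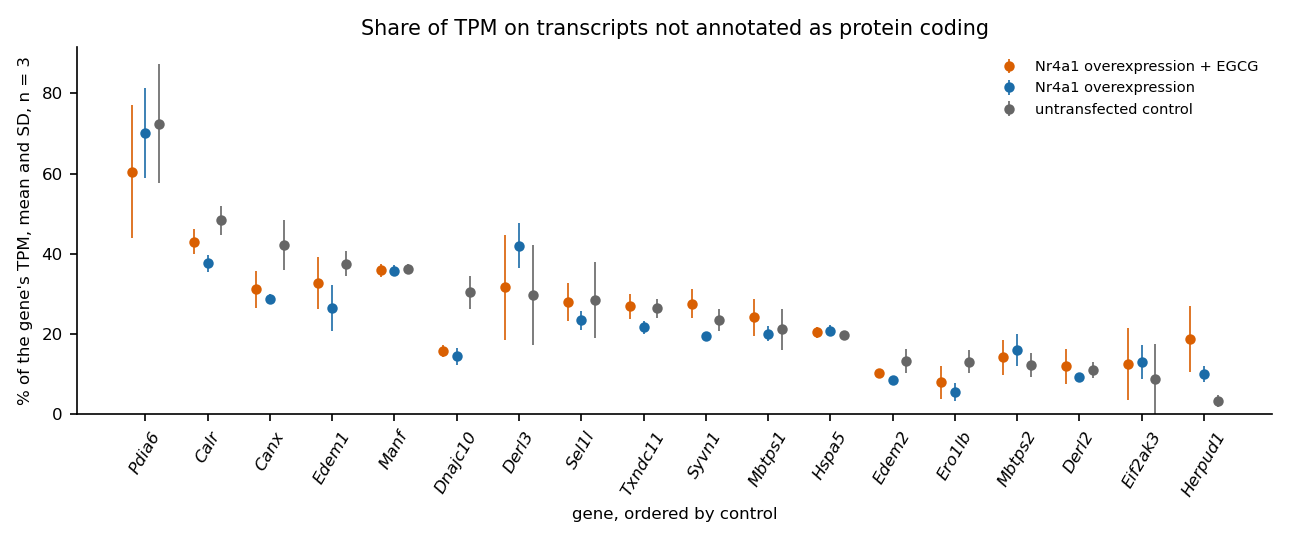
Share of each gene's TPM on transcripts not annotated as protein coding, as mean and SD over 3 libraries, for the genes where the mean reached 10% in a group. For Calr, Canx, Edem1 and Dnajc10 the share is higher in control (grey) than with overexpression (blue), and for Herpud1 it is lower.

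The wider pathway was described with 97 further genes in 4 lists, of which 87 passed the filter. With overexpression 50 of the 87 rose, 11 fell and 26 were not called (median 0.29, against 0.10 for all tested genes, of which 38.2% rose and 21.3% fell). With EGCG against overexpression alone 48 fell, 11 rose and 28 were not called (median -0.24, against -0.09 for all tested genes, of which 34.1% fell and 18.8% rose). With EGCG against control 14 were higher, 8 lower and 65 not called, where 11.1% of all tested genes were higher and 7.1% lower. The counts of the 4 lists with overexpression, given next, stand beside the same 38.2% and 21.3%.

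In the PERK branch and among ER-anchored factors, 8 of 12 tested genes rose with overexpression and 4 were not called. Atf4, the transcription factor translated when eIF2 alpha is phosphorylated, was at 174.1, 176.6 and 172.9 TPM with overexpression and at 112.8, 113.7 and 120.8 TPM in control, a rise of 0.59 ± 0.0549. Creb3 rose by 0.91, Ppp1r15b, a subunit of the eIF2 alpha phosphatase, by 0.50 and Atf5 by 0.42. The next genes, Ddit3, Trib3, Chac1 and Ppp1r15a, are known to act in the late response downstream of ATF4 and were named after their values were seen. Ddit3 (CHOP) was at 28.8, 29.7 and 29.8 TPM with overexpression and at 31.2, 30.3 and 28.1 TPM in control, Trib3 at 33.2, 31.6 and 31.8 TPM against 30.4, 32.7 and 33.8 TPM, and Chac1 at 34.6, 37.3 and 36.2 TPM against 31.8, 32.0 and 35.1 TPM. The groups overlapped in these 3, none was called, and Ddit3 was called lower under median-ratio scaling (-0.13) and, with Trib3 (-0.17), under quantile normalization (-0.18). Ppp1r15a (GADD34), the stress-induced phosphatase subunit and another gene of that response, was at 12.6, 14.1 and 14.4 TPM with overexpression and at 10.9, 9.69 and 11.3 TPM in control, and rose by 0.34 ± 0.0709 (0.20, and not called, under quantile normalization). With EGCG, Atf4 fell by 0.64, Atf5 by 0.73, Creb3 by 0.72, Ppp1r15b by 0.60 and Chac1 by 0.58 against overexpression alone. Ddit3 (-0.06), Trib3 (-0.13) and Ppp1r15a (-0.175) were not called in that comparison.

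Among other chaperones and glycan-processing enzymes, 13 of 22 tested genes rose with overexpression and 3 fell. Uggt1, the glucosyltransferase that tags unfolded glycoproteins for another round with Calr and Canx, rose by 0.75 (by 0.05, and not called, with protein-coding transcripts alone). Both subunits of glucosidase II rose, Ganab by 0.76 and Prkcsh by 0.78, and the calnexin relative Clgn by 0.83. Against overexpression alone these 4 fell with EGCG by 0.41, 0.34, 0.52 and 1.14. Ganab was at -0.13 under quantile normalization and Uggt1 at -0.12 with protein-coding transcripts alone, neither called.

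Among other oxidoreductases, 9 of 17 tested genes rose with overexpression and 5 fell. Ero1l, the ubiquitous oxidase that carries out the same reaction as Ero1lb and is known to be induced by hypoxia, was at 27.6, 25.0 and 22.7 TPM with overexpression, against 94.0, 88.5 and 82.9 TPM in control. It fell by 1.78 ± 0.0878 on the log2 scale (limma adjusted p = 1.03e-06), the largest change of any gene of the pathway lists, with no overlap between the groups. With EGCG it was at 82.7, 73.2 and 86.8 TPM and rose by 1.65 ± 0.0878 against overexpression alone (limma adjusted p = 1.68e-06). Erp29 rose with overexpression by 0.80, Tmx2 by 0.85 and Selenof, which binds Uggt1, by 0.58.

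Among other ERAD genes, 20 of 36 tested genes rose with overexpression and 3 fell. Vcp (p97), the segregase that pulls substrates from the membrane, was at 50.9, 46.1 and 47.2 TPM with overexpression and at 27.6, 28.6 and 27.1 TPM in control (0.77 ± 0.0656; limma adjusted p = 1.58e-05), and the ubiquitin ligase Rnf185 rose by 0.72. The E2 enzyme Ube2g1 fell by 0.74 and Fam8a1, a component of the HRD1 complex, by 0.54. With EGCG against overexpression alone, Vcp and Rnf185 fell by 0.59 and 0.49, and Ube2g1 and Fam8a1 rose by 0.63 and 0.42.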

How the data were processed

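The deposited table holds TPM per Ensembl transcript for 9 libraries, as made by the authors; per the labels, total RNA went into a stranded total RNA kit in a single batch. The tools that the submitters' processing notes name are STAR 2.7.1a (alignment software), RSEM 1.2.31 (transcript quantification software), cutadapt 2.8, FastQC 0.11.9 and bcl2fastq 2.20, beside build GRCm39. Annotation release, strand setting and filters are not given there. Because TPM is a share, more of an abundant RNA lowers the TPM of others, and depth cannot be recovered.

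GENCODE M21 assigned 138346 of 142435 transcripts (97.1%) to genes. The others held between 18.0% and 20.6% of a library's TPM, so gene sums may lack newer transcripts. The main model was limma 3.58.1 (R 4.3.3) on log2(TPM + 1), 1 fit of all 9 libraries with a variance trend and no covariates, two-sided, with Benjamini-Hochberg adjustment over 11950 genes at 0.05. It was tested on simulated data with few changed genes, equal numbers up and down, and independent errors. Such data do not bear on the scaling of the libraries. No count model suits TPM. The 40 members and all lists were chosen with earlier results of these data known. Values per library are given for sensors and the 4 genes of each role with the largest change, and for others chosen after their values were seen. Of each pathway list the 4 called genes with the smallest adjusted p are named. RefSeq windows on GRCm38.p6 matched 35 of the 40 genes; their coordinates are not those of the files' build. Alternatives covered the pseudocount (0.1 for 1), no filter, 3 scalings, the samples fitted, no variance trend, a replicate block and leaving out each library. Protein-coding transcripts alone were tried after the data had been seen. Python 3.11.15, pandas 2.3.3 and matplotlib 3.10.9 did the rest.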

Additional observations from a re-analysis of the deposited data

How the results depend on the processing

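The counts of called genes among the 40 stayed within 1.5 times their values for overexpression against control (25 to 31) and for EGCG against overexpression (24 to 30) under all 15 alternatives each. For EGCG against control the count of 8 was 4 with only the 2 groups compared and from 1 to 7 when a library was left out; the pathway lists gave 22, 11 with only the 2 groups, and 11 to 28; all tested genes gave 2172, 895 with only the 2 groups, 4775 with no filter on low values, and 735 to 3239. For overexpression against control all tested genes gave 7106, and 12395 with no filter, which tests more genes and gave 7798 of them as lower. The cause of the other shifts was not tested.

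With the replicate number as a block, 29, 27 and 4 of the 40 genes were called in the 3 comparisons, 11 pathway genes in the last, and 1221 of all genes there. Deviations of libraries with the same number correlated between -0.021 and 0.21, over 0.1 in 3 of 9 pairs, and those with other numbers between -0.24 and 0.12. Of the 9 libraries, 7 correlated best with their own number. The labels give only that number, so whether libraries that share it are paired stays unknown.

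Signs turned for genes with small log2 fold changes. For overexpression against control, median-ratio scaling gave Mbtps2 -0.0727 and Txndc5 -0.0185; quantile normalization Mbtps2 -0.0484, P4hb -0.0642, Txndc5 -0.0619, Sel1l -0.0226, Os9 -0.0021 and Chac1 -0.041; rescaling on nuclear protein-coding genes Mbtps2 -0.0455; and protein-coding transcripts alone Mbtps2 -0.0257, Pdia6 0.0195 and Derl3 -0.0517. For EGCG against overexpression, median-ratio scaling gave P4hb 0.0478, Txndc5 0.0368, Sel1l 0.0458 and Ddit3 0.038; quantile normalization Ppib 0.0761, P4hb 0.1516, Txndc5 0.0895, Sel1l 0.0688, Ddit3 0.1108 and Trib3 0.0611; rescaling Ppib 0.0287, P4hb 0.0955, Txndc5 0.0823, Sel1l 0.0898, Derl3 0.0197, Ddit3 0.0845 and Trib3 0.0163; and protein-coding transcripts alone Pdia6 0.161 and Derl3 0.074. For EGCG against control, rescaling gave Canx 0.0524 and Herpud1 0.0135, and protein-coding transcripts alone gave Canx 0.2395. Leaving out a library gave ranges across 0 for overexpression against control of -0.0129 to 0.0619 for Mbtps2, -0.0458 to 0.0275 for Trib3, -0.0612 to 0.0115 for Ddit3 and -0.117 to 0.0653 for Eif2ak3. Such ranges for EGCG against overexpression were -0.093 to 0.016 for P4hb and -0.3116 to 0.0051 for Pdia6, and for EGCG against control -0.0951 to 0.0403 for Canx. The cause was not tested. Fold changes of other uncalled genes in EGCG against control are not given one by one. TPM gives no depth, so no limit from counting can be stated.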
